A study of Mus musculus with 35 samples.

Results

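The mitochondrial SLC25 carriers were taken as all protein-coding mouse genes whose symbol is Slc25a followed by a number, which gave 47 of the 48709 genes in each table of counts. A further match, Slc25a5-ps, is annotated as a pseudogene and was left out. Enough reads were counted for 39 of the 47 carriers to be tested, among 13819 genes tested in all. The 8 others (Slc25a18, Slc25a21, Slc25a31, Slc25a34, Slc25a41, Slc25a43, Slc25a48 and Slc25a54) were at or near 0 in every library.

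SLC25 proteins sit in the inner membrane of mitochondria, which is closed to most charged molecules, and each moves a small set of metabolites, nucleotides or cofactors across it. Through them ADP and phosphate enter and ATP leaves, aspartate, malate and citrate are passed between the matrix and the cytosol, and folates, iron, glutathione and nucleotides reach the matrix. In activated T cells these exchanges connect the mitochondria to glycolysis, nucleotide synthesis, lipid synthesis and redox balance.

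RNA was sequenced from OT-I CTLs, which are mouse cytotoxic CD8+ T cells that all carry a transgenic T cell receptor for an ovalbumin peptide. Splenic CD8+ T cells had been primed with antibodies to CD3 and CD28 and expanded in IL-2, the cytokine that sustains growth and effector function of CTLs, and every group shares that history. The 7 groups had 5 biological replicates each, numbered 1 to 5. One group was collected at 0 h, and the other 6 were cultured for 24 h in medium of pH 7.4, 7 or 6.6, to which 200 IU/mL mouse IL-2 had been added (written "+ IL-2" here) or not. The medium had been acidified with HCl, and dead cells had been removed on a density gradient before RNA was extracted. These cells had been activated in culture and were not taken from a tumour or another acid tissue, and the age of the mice is not given in the sources used here.

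Between 16721319 and 34033340 reads were counted on genes per library. Levels are given as CPM, the counts scaled to a common library size on genes after TMM scaling, when a carrier is compared with itself, and as RPKM, which also divides by exon length, when carriers are compared with each other. The CD8+ T cell genes Cd8a, Cd8b1, Cd3e and Cd3g were found in 35 of 35 libraries, Cd8a at 673.5 to 1596 CPM. The B cell gene Ms4a1 and the red cell gene Hbb-bs were at 0 in 35 of 35 libraries. Of the other B cell genes listed, Cd79b was at 1.02 to 5.91 CPM. Summed over the 6 CD8+ T cell markers, which include the effector genes Gzmb and Prf1, the level was 9071 to 11672 CPM at pH 7.4 + IL-2 and 2633 to 3972 CPM at pH 6.6 + IL-2, and 2384 to 2751 CPM at pH 7.4 and 1969 to 2304 CPM at pH 6.6 without IL-2. Over the 35 libraries Gzmb ranged from 36.7 to 9006 CPM and Prf1 from 11.1 to 685 CPM. The ranges of Cd8b1, Cd3e and Cd3g were 211 to 413, 373 to 631 and 398 to 1196 CPM. In bulk RNA, fewer cells of a kind and less RNA of a gene in each cell cannot be told apart.

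Counted per length (in RPKM), the summed level of the family was highest at pH 7.4 + IL-2 and lower at pH 6.6 + IL-2. The summed level of the 47 carriers was 923 ± 23.7 RPKM (SD, n = 5) at pH 7.4 + IL-2, 818 ± 10.1 RPKM at pH 7 + IL-2 and 689 ± 10.4 RPKM at pH 6.6 + IL-2. Without IL-2 the order turned round, with 615 ± 12.3 RPKM at pH 7.4, 618 ± 19.5 RPKM at pH 7 and 713 ± 11.7 RPKM at pH 6.6, and at 0 h the sum was 774 ± 61.8 RPKM. The values at pH 7.4 and pH 7 without IL-2 lay within 1 SD of each other. Slc25a5 alone went from 388 ± 11.6 RPKM at pH 7.4 + IL-2 to 169 ± 6.69 RPKM at pH 6.6 + IL-2. Most of the fall in the sum with IL-2 was therefore a fall of this carrier. The fall with IL-2 and the place of the highest group also depend on the scale. In CPM, without division by length, the sum was 2749 ± 45.4 at pH 7.4 + IL-2 and 2676 ± 113 at pH 6.6 + IL-2, which overlap within their SDs, and was highest at pH 6.6 without IL-2, at 2874 ± 59.7 CPM against 2294 ± 45.7 CPM at pH 7.4.

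Slc25a5, Slc25a3 and Slc25a4 led the family in 7 of 7 groups. Slc25a5, the adenine nucleotide translocase that prevails in dividing cells, made up 41.97% ± 0.524 of the summed RPKM at pH 7.4 + IL-2 and 24.6% ± 1.13 at pH 6.6 + IL-2 (SD, n = 5). The mitochondrial phosphate carrier Slc25a3 went from 11.1% ± 0.192 to 20.7% ± 0.8904 of the sum between the same groups. At pH 7.4 + IL-2 the order was Slc25a5 at 388 ± 11.6 RPKM, Slc25a3 at 102 ± 4.18, Slc25a4 at 93.7 ± 8.04 and Slc25a11 at 52.1 ± 5.79, followed by Slc25a39, Slc25a1 and Slc25a24 at 29.8 ± 2.37, 29.2 ± 3.96 and 28.8 ± 2.35 RPKM, which did not differ beyond their SDs. At pH 6.6 + IL-2 the mitoferrin gene Slc25a37 was the fourth, at 36.6 ± 5.15 RPKM, ahead of Slc25a24 and Slc25a11. Without IL-2 at pH 6.6, Slc25a5 at 158 ± 10.2 RPKM and Slc25a3 at 156 ± 6.0 RPKM were within 1 SD of each other. Of the 50-base windows of the Slc25a5 exons, 66.2% occur in no other annotated transcript, and reads with several placements were not counted, so reads from the rest can be missing from its level. At least 95% of the windows were unique in 38 of the 47 carriers, and after Slc25a5 the lowest shares were those of Slc25a35 (74.95%) and Slc25a33 (87.4%).

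**Figure D1:**
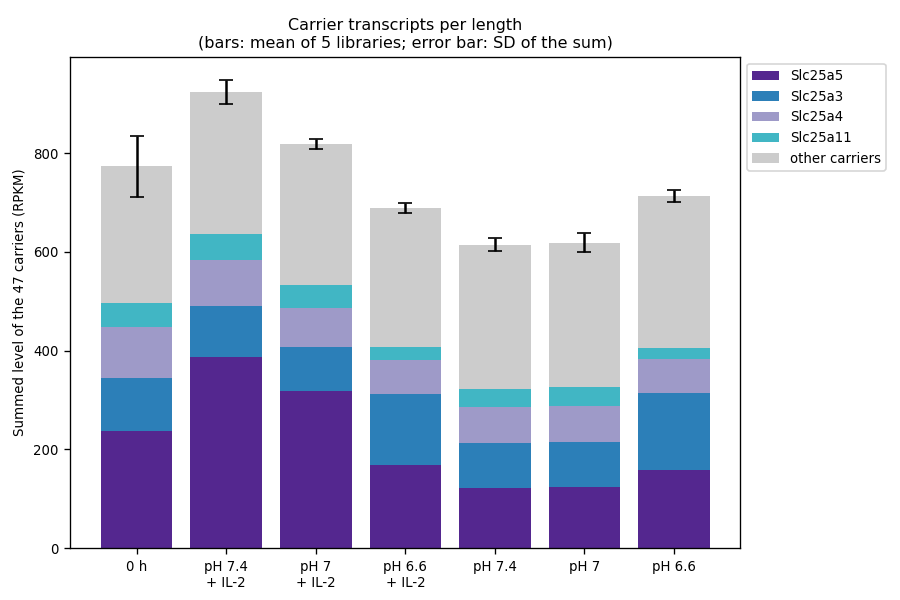
Summed level of the 47 SLC25 carriers in RPKM (vertical axis) in the 7 groups (horizontal axis), with the mean of 5 libraries split into Slc25a5, Slc25a3, Slc25a4, Slc25a11 and all other carriers, and the SD of the sum as the error bar. The Slc25a5 share is largest at pH 7.4 + IL-2, where the sum is 923 ± 23.7 RPKM, and the Slc25a3 share is larger in both pH 6.6 groups than in the pH 7.4 group with the same IL-2 treatment.

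The first comparison asked which carriers differed in acid medium when IL-2 was present. At pH 6.6 + IL-2, 19 of the 39 carriers were lower and 13 were higher than at pH 7.4 + IL-2 (edgeR quasi-likelihood test with the replicate number as a block, Benjamini-Hochberg adjusted p under 0.05). The carriers that fell most were those for pyrimidine nucleotides (Slc25a33), aspartate and glutamate (Slc25a13), folate (Slc25a32), ornithine (Slc25a15) and dicarboxylates (Slc25a10), besides the weakly expressed Slc25a47. Those that rose most were the ATP-Mg/phosphate carrier Slc25a23, the iron carriers Slc25a37 and Slc25a28, the pyrimidine nucleotide carrier Slc25a36 and the glutathione carrier Slc25a40. These counts stand against a large background, because 76.3% of all genes tested passed the same threshold, 40.9% lower and 35.4% higher, against 82.1% of the carriers. The carriers had a median log2 fold change of -0.28, and all genes tested one of -0.07. All 32 of the carriers past the threshold changed the same way in 5 of 5 same-numbered pairs. The test was blocked on the same pairs, so such counts, here and below, are not separate support. Their share over all genes called is not given here. In 31 of the 39 carriers the pH 6.6 and pH 7.4 libraries did not overlap (79.5%, against 59.2% of all genes tested).

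**Figure D2:**
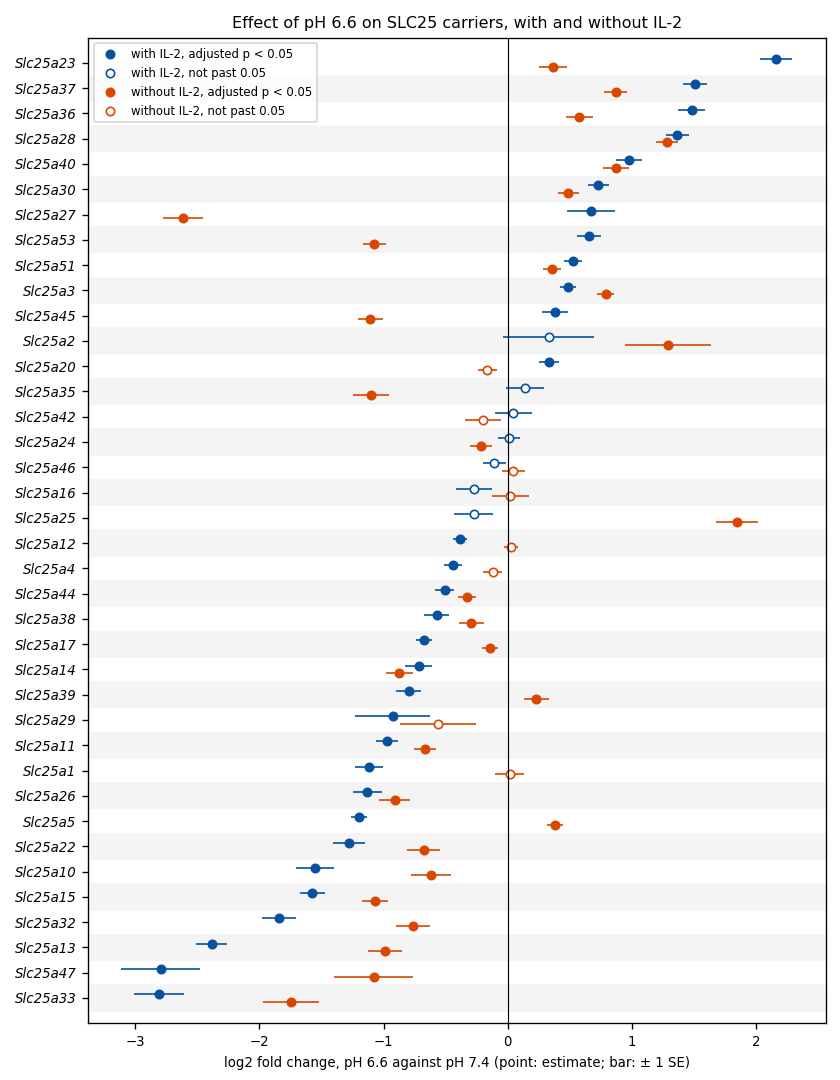
Log2 fold change from pH 7.4 to pH 6.6 (horizontal axis) of 38 tested carriers (vertical axis), ordered by the value with IL-2, with IL-2 in blue and without IL-2 in orange. Points are estimates, bars are ± 1 SE, and filled points passed an adjusted p of 0.05. With IL-2 the values run from -2.81 for Slc25a33 to 2.16 for Slc25a23, and Slc25a27, Slc25a45, Slc25a53, Slc25a5 and Slc25a39 have filled points on opposite sides of 0.

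Promoter sequences are shown for 3 carriers that were lower at pH 6.6 + IL-2 and that share a short motif, Slc25a33, Slc25a13 and Slc25a1. RefSeq promoter windows (GRCm38.p6, from 250 bases before to 50 bases after a gene's start) were found for 36 of the 47 carriers. The E-box letters CACGTG, a palindrome that reads the same on both strands, occurred in the windows of 7 of these carriers (19.4%) against 8.09% of 27025 genes. They were Slc25a1, Slc25a13, Slc25a14, Slc25a15, Slc25a31, Slc25a33 and Slc25a36. Of the 6 that were tested, Slc25a1, Slc25a13, Slc25a14, Slc25a15 and Slc25a33 were lower at pH 6.6 + IL-2, and Slc25a36 was higher. Of all genes tested, 40.9% were lower and 35.4% higher. Whether genes with these letters fell more often than others was not tested. The printed carriers were picked from those that were lower, and Slc25a36 is not printed. The cyclic AMP response element letters TGACGTCA, also a palindrome, were in the windows of Slc25a25 and Slc25a36, which is 5.56% of the carriers against 2.03% of all genes. The STAT letters TTCNNNGAA, which read the same on both strands, were in those of Slc25a36 and Slc25a54 (5.56% against 9.55%). In Slc25a36 the 3 matches do not overlap. A match is a description of the letters and not evidence that a factor binds there. The 250 bases before each start are printed 5′ to 3′ on the strand of the gene, with CACGTG in capitals. GENCODE M21 starts Slc25a33 within the last bases of its window, so that its match lies at the annotated start. The windows with the matches of Slc25a15 and Slc25a25 lie inside these genes as GENCODE M21 annotates them.
Slc25a33, chr4:149774268-149774517, minus strand: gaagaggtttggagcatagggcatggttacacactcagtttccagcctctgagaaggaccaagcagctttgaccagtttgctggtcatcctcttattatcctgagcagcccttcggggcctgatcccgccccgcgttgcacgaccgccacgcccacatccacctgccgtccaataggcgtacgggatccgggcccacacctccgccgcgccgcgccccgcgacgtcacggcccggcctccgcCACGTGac
Slc25a13, chr6:6217174-6217423, minus strand: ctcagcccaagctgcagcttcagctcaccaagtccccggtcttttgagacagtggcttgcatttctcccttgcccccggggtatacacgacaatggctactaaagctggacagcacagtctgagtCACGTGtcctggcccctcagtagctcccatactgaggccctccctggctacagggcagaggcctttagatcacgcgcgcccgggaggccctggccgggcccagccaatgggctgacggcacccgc
Slc25a1, chr16:17928220-17928469, minus strand: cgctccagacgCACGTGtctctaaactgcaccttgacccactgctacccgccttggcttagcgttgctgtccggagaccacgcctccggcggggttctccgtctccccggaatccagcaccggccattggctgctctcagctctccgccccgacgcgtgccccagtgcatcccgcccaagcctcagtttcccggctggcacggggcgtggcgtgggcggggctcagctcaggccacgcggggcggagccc

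Among carriers of adenine nucleotides and phosphate, 3 of 9 tested were lower and 2 higher at pH 6.6 + IL-2 (40.9% and 35.4% of all genes tested). Slc25a5 (ENSMUSG00000016319, chrX:36795651-36798807, plus strand in GRCm38) measured 649, 618, 616, 648 and 657 CPM in the 5 libraries of pH 7.4 + IL-2. At pH 6.6 + IL-2 it measured 269, 272, 271, 285 and 294 CPM. The pH 6.6 libraries lay close together at less than the lowest pH 7.4 library, a log2 fold change of -1.20 ± 0.07 (SE), or 2.29-fold lower, with an edgeR adjusted p of 4.18e-17. Without IL-2 the difference was in the opposite direction, from 199.5 ± 8.596 CPM at pH 7.4 to 260.1 ± 16.8 CPM at pH 6.6 (SD, n = 5), a log2 fold change of 0.38 ± 0.07 (adjusted p = 5.94e-06). The interaction, which is the effect of pH 6.6 with IL-2 minus that without IL-2, was -1.58 ± 0.09 (adjusted p = 6.84e-16) for Slc25a5. Its paralogue Slc25a4, the adenine nucleotide translocase of heart and muscle, measured 207, 210.2, 205, 233 and 247 CPM at pH 7.4 + IL-2 and 163, 159, 158, 165 and 164 CPM at pH 6.6 + IL-2. Those groups did not overlap either, but the fall was smaller, at -0.44 ± 0.08 (adjusted p = 3.52e-06). The Slc25a4 interaction of -0.32 ± 0.11 (adjusted p = 0.00889) fell short of the threshold when replicate 3 (adjusted p = 0.104) or replicate 4 (adjusted p = 0.0502) was left out.

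The phosphate carrier Slc25a3 rose while both translocases fell. It measured 555, 552, 545, 587 and 598 CPM at pH 7.4 + IL-2 and 797, 802, 851, 731 and 780.1 CPM at pH 6.6 + IL-2, with no overlap and a log2 fold change of 0.48 ± 0.07 (adjusted p = 5.57e-08). Without IL-2 it went from 503 ± 25.1 CPM to 868 ± 33.3 CPM, a log2 fold change of 0.79 ± 0.07 (adjusted p = 4.18e-12). The interaction of -0.30 ± 0.09 (adjusted p = 0.00431) lost the threshold without replicate 3 (adjusted p = 0.0852).

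The ATP-Mg/phosphate carriers Slc25a23, Slc25a24 and Slc25a25, which bind calcium and adjust the adenine nucleotide pool of the matrix, each followed another pattern. Slc25a23 had the largest rise of the family, from 3.49, 3.61, 3.61, 3.97 and 3.52 CPM at pH 7.4 + IL-2 to 13.2, 18.9, 19.5, 16.5 and 13.8 CPM at pH 6.6 + IL-2. All pH 6.6 libraries were more than 3 times as high as the median pH 7.4 library, and the log2 fold change was 2.16 ± 0.13 (adjusted p = 2.25e-16). Without IL-2, Slc25a23 was already at 14.5 ± 1.12 CPM at pH 7.4 and at 18.7 ± 2.39 CPM at pH 6.6. That difference of 0.36 ± 0.11 (adjusted p = 0.00582) had overlapping groups and lost the threshold without replicate 2 (adjusted p = 0.0544). The interaction for Slc25a23 was 1.796 ± 0.17 (adjusted p = 5.44e-11). Slc25a25 measured 17.6, 17.4, 16.7, 18.3 and 16.3 CPM at pH 7.4 + IL-2 and 12.6, 15.8, 14.9, 12.4 and 16.03 CPM at pH 6.6 + IL-2, and although these groups did not overlap the log2 fold change of -0.28 ± 0.15 (adjusted p = 0.103) did not pass. Without IL-2, Slc25a25 measured 5.59, 3.53, 3.89, 2.59 and 4.79 CPM at pH 7.4 and 13.8, 16.1, 15.8, 12.7 and 15.3 CPM at pH 6.6. There it was the carrier with the largest rise, at 1.85 ± 0.17 (adjusted p = 3.22e-11), and its interaction was -2.12 ± 0.23 (adjusted p = 8.72e-10). Slc25a24, more abundant than both at 92.8 to 123 CPM as a group mean, had a log2 fold change of 0.01 ± 0.09 (adjusted p = 0.917) with IL-2 and of -0.22 ± 0.09 (adjusted p = 0.0285) without IL-2. Of the others in this class, the peroxisomal carrier Slc25a17 fell by 0.68 on the log2 scale with IL-2, and Slc25a16 and Slc25a42 did not pass with or without IL-2.

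All 3 of the tested carriers for di- and tricarboxylates were lower at pH 6.6 + IL-2, against 40.9% of all genes tested. The citrate carrier Slc25a1 (ENSMUSG00000003528, chr16:17925223-17928219, minus strand), which exports citrate for lipid synthesis, measured 53.8, 63.3, 56.3, 67.3 and 75.1 CPM at pH 7.4 + IL-2. At pH 6.6 + IL-2 it measured 30.7, 25.02, 21.5, 36.5 and 31.8 CPM, below every pH 7.4 library. The log2 fold change was -1.12 ± 0.11 (adjusted p = 1.32e-10) with IL-2. Without IL-2 the level was low at both pH values, 23.5 ± 3.35 CPM at pH 7.4 and 23.8 ± 3.74 CPM at pH 6.6, with a log2 fold change of 0.02 ± 0.12 that did not pass (adjusted p = 0.909) and an interaction of -1.13 ± 0.16 (adjusted p = 2.36e-07). The dicarboxylate carrier Slc25a10, which exchanges malate or succinate for phosphate, went from 21.8, 25.1, 20.97, 24.2 and 21.6 CPM to 8.09, 6.99, 5.87, 9.66 and 8.201 CPM between pH 7.4 + IL-2 and pH 6.6 + IL-2. The fall was 2.94-fold, at a log2 fold change of -1.55 ± 0.15 (adjusted p = 8.43e-11), and without IL-2 it was -0.62 ± 0.16 (adjusted p = 0.00112). Slc25a11, the malate/2-oxoglutarate carrier of the malate-aspartate shuttle, measured 93.2, 108, 109, 114 and 127 CPM and 53.9, 51.03, 51.1, 64.2 and 60.3 CPM in the same groups. It fell in both settings, by 0.98 on the log2 scale with IL-2 and by 0.66 without. The interaction of -0.31 ± 0.12 (adjusted p = 0.0275) for Slc25a11 lost the threshold without replicates 1, 3 or 4, whose lowest to highest adjusted p was 0.0543 to 0.207, under the stricter filter on low counts (adjusted p = 0.0646), without the block (adjusted p = 0.0556) and in the fit of only these groups (adjusted p = 0.0813).

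Of 8 tested amino acid carriers, 7 were lower at pH 6.6 + IL-2 and 0 were higher, against 40.9% and 35.4% of all genes tested. The aspartate/glutamate carriers Slc25a13 (citrin) and Slc25a12 (aralar) supply cytosolic aspartate and serve the malate-aspartate shuttle. Slc25a13 (ENSMUSG00000015112, chr6:6041218-6217173, minus strand) measured 29.9, 35.6, 34.96, 35.8 and 31.2 CPM at pH 7.4 + IL-2 and 5.31, 5.75, 4.61, 9.08 and 7.95 CPM at pH 6.6 + IL-2. The lowest pH 7.4 library was more than 3 times as high as the highest pH 6.6 library, and the log2 fold change was -2.38 ± 0.12 (adjusted p = 1.26e-17), 5.21-fold lower. Without IL-2, Slc25a13 went from 6.18 ± 1.25 CPM to 3.099 ± 0.647 CPM, a log2 fold change of -0.99 ± 0.14 (adjusted p = 1.71e-07), and the interaction was -1.39 ± 0.18 (adjusted p = 6.37e-08). Slc25a12 measured 80.3, 76.8, 79.4, 71.3 and 71.01 CPM at pH 7.4 + IL-2 and 59.3, 55.4, 56.2, 59.8 and 59.4 CPM at pH 6.6 + IL-2. It fell by only 0.38 on the log2 scale with IL-2 (SE 0.05, adjusted p = 1.32e-07), and without IL-2 its log2 fold change of 0.03 ± 0.05 did not pass (adjusted p = 0.696).

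Slc25a15, the ornithine/citrulline carrier, measured 28.4, 27.3, 24.05, 24.2 and 23.97 CPM at pH 7.4 + IL-2 and 10.4, 7.03, 6.25, 10.6 and 9.12 CPM at pH 6.6 + IL-2, a log2 fold change of -1.57 ± 0.10 (adjusted p = 2.75e-15). It also fell without IL-2, by 1.07 on the log2 scale, and the interaction of -0.50 ± 0.15 (adjusted p = 0.00305) lost the threshold without replicate 3 (adjusted p = 0.0598). The glutamate carrier Slc25a22 went from 57.5, 53.2, 49.8, 54.3 and 44.4 CPM to 25.5, 19.5, 15.1, 25.6 and 21.1 CPM with IL-2, a log2 fold change of -1.28 ± 0.13 (adjusted p = 1.30e-10). Its pH 6.6 libraries were all below its pH 7.4 libraries, and without IL-2 it fell by 0.68 on the log2 scale. The Slc25a22 interaction of -0.60 ± 0.18 (adjusted p = 0.00485) lost the threshold without replicate 3 (adjusted p = 0.0616). Slc25a38, which brings in glycine for heme synthesis, measured 17.6, 15.03, 14.7, 16.3 and 16.97 CPM and 12.8, 13.6, 10.2, 8.92 and 9.07 CPM in the pH 7.4 + IL-2 and pH 6.6 + IL-2 libraries. The change of Slc25a38 was -0.57 ± 0.10 (adjusted p = 8.03e-06) with IL-2. The smaller difference without IL-2, -0.30 ± 0.10 (adjusted p = 0.01102), had overlapping groups and lost the threshold without replicate 1 or 5 (adjusted p = 0.0659 and 0.0592). The branched-chain amino acid carrier Slc25a44 (-0.51 ± 0.07) and the basic amino acid carrier Slc25a29 (-0.93 ± 0.30) were lower too on the log2 scale, and Slc25a2, which had 2 to 19 counts per library, did not pass at 0.33 ± 0.37.

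The carriers for cofactors and pyrimidine nucleotides divided evenly, 3 lower and 3 higher at pH 6.6 + IL-2 (40.9% and 35.4% of all genes tested). Slc25a32, which carries folate into the matrix for one-carbon metabolism, measured 44.5, 38.3, 35, 31.97 and 27.4 CPM at pH 7.4 + IL-2 and 12.3, 8.11, 9.64, 9.95 and 9.53 CPM at pH 6.6 + IL-2. Its groups did not overlap, and the log2 fold change was -1.84 ± 0.13 (adjusted p = 4.55e-14) with IL-2 and -0.76 ± 0.14 (adjusted p = 1.45e-05) without IL-2. The Slc25a32 interaction was -1.08 ± 0.19 (adjusted p = 1.00e-05). Slc25a33 (ENSMUSG00000028982, chr4:149744036-149774277, minus strand), a pyrimidine nucleotide carrier, had the largest fall of the family. It measured 10.01, 9.300, 7.96, 8.52 and 8.35 CPM at pH 7.4 + IL-2 and 1.79, 0.839, 0.881, 1.48 and 1.46 CPM at pH 6.6 + IL-2, where 21 to 36 reads were counted per library. The log2 fold change of Slc25a33 was -2.81 ± 0.20 (adjusted p = 3.35e-14), 6.997-fold lower, against -1.74 ± 0.22 (adjusted p = 4.01e-08) without IL-2 and an interaction of -1.06 ± 0.31 (adjusted p = 0.00333). Of the exon bases of Slc25a33, 14.9% lie opposite the antisense gene Gm13068, and the strand setting of the counting is not given in the sources used here.

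Its paralogue Slc25a36 (ENSMUSG00000032449, chr9:97074961-97111157, minus strand), also a pyrimidine nucleotide carrier, moved the other way. Slc25a36 measured 71.7, 65.8, 71.9, 73.5 and 68.9 CPM at pH 7.4 + IL-2 and 175, 214, 246, 174 and 174 CPM at pH 6.6 + IL-2. The lowest pH 6.6 library was more than 2 times as high as the highest pH 7.4 library, a log2 fold change of 1.48 ± 0.11 (adjusted p = 6.53e-14). Without IL-2 the difference was 0.58 ± 0.11 (adjusted p = 1.97e-05), with overlapping groups and a rise in 4 of 5 pairs, and the interaction was 0.90 ± 0.15 (adjusted p = 4.03e-06). The NAD+ carrier Slc25a51 went from 73.9, 67.8, 68.1, 64.03 and 58.2 CPM to 92.2, 108, 109, 86.3 and 82.8 CPM with IL-2, a log2 fold change of 0.53 ± 0.07 (adjusted p = 8.02e-08). It rose by a smaller amount without IL-2, at 0.36 ± 0.07 (adjusted p = 6.00e-05). Slc25a26, the S-adenosylmethionine carrier, fell in both settings, by 1.13 with IL-2 and by 0.91 without on the log2 scale.

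Of 4 carriers of iron and glutathione, 3 were higher and 1 was lower at pH 6.6 + IL-2, where 35.4% and 40.9% of all genes tested were. Without IL-2, 4 of the 4 were higher at pH 6.6 (31.6% of all genes), of which Slc25a39 only narrowly (adjusted p = 0.0445). The mitoferrins Slc25a37 (mitoferrin 1) and Slc25a28 (mitoferrin 2) bring iron into the matrix for heme and iron-sulfur clusters. Slc25a37 measured 90.4, 71.9, 81.5, 77.9 and 67.4 CPM at pH 7.4 + IL-2 and 189, 244, 262, 204 and 202 CPM at pH 6.6 + IL-2, with a log2 fold change of 1.51 ± 0.10 (adjusted p = 1.36e-15). Without IL-2 it was higher at both pH values, 166 ± 6.77 CPM at pH 7.4 and 303 ± 8.54 CPM at pH 6.6, a log2 fold change of 0.87 ± 0.09 (adjusted p = 1.12e-09). Slc25a28 went from 30.9, 24.9, 24.9, 26.8 and 25.96 CPM to 64.97, 71.1, 70.6, 71.7 and 64.3 CPM with IL-2, and none of these libraries overlapped. Its log2 fold changes of 1.37 ± 0.09 (adjusted p = 4.03e-15) with IL-2 and 1.28 ± 0.09 (adjusted p = 6.94e-14) without IL-2 had an interaction of 0.08 ± 0.12 that did not pass (adjusted p = 0.5699).

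The glutathione carriers Slc25a39 and Slc25a40 moved in opposite directions at pH 6.6 + IL-2. Slc25a39 measured 76.7, 81.4, 74.8, 88.2 and 89.2 CPM at pH 7.4 + IL-2 and 47.8, 45.3, 40.3, 50.8 and 52.2 CPM at pH 6.6 + IL-2, a log2 fold change of -0.80 ± 0.10 (adjusted p = 1.49e-08). Without IL-2 its levels were 41.9 ± 5.97 CPM at pH 7.4 and 49.1 ± 7.08 CPM at pH 6.6, and that difference of 0.23 ± 0.10 (adjusted p = 0.0445) had overlapping groups and was lost without replicate 1, 3 or 4 (adjusted p = 0.0829 to 0.313), under either other filter on low counts, without the block and in the fit of only these groups. Slc25a40 measured 53.6, 54.2, 52.5, 47.7 and 43.5 CPM at pH 7.4 + IL-2 and 110.3, 99.9, 123, 81.99 and 82.5 CPM at pH 6.6 + IL-2. Its rise was 0.98 ± 0.10 (adjusted p = 3.97e-10) with IL-2 and 0.87 ± 0.10 (adjusted p = 8.94e-09) without IL-2. The interactions were -1.03 ± 0.14 (adjusted p = 1.53e-07) for Slc25a39 and 0.11 ± 0.15 for Slc25a40, and the second did not pass (adjusted p = 0.528).

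Slc25a20, the carnitine/acylcarnitine carrier of fatty acid oxidation, measured 30.98, 29.6, 31.5, 30.9 and 30.6 CPM at pH 7.4 + IL-2 and 42.5, 38.2, 39.9, 37.03 and 35.4 CPM at pH 6.6 + IL-2. Its groups did not overlap, and the log2 fold change was 0.33 ± 0.08 (adjusted p = 4.23e-04). Without IL-2 it was -0.16 ± 0.08, which did not pass (adjusted p = 0.0661) but passed without replicate 1 (adjusted p = 0.0198), and the interaction was 0.49 ± 0.11 (adjusted p = 2.67e-04).

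Slc25a14, Slc25a27 and Slc25a30 are named in part for their likeness to uncoupling proteins. Slc25a30 was higher and Slc25a14 lower at pH 6.6 in both settings, with log2 fold changes of 0.73 ± 0.08 and -0.72 ± 0.11 with IL-2 and of 0.49 ± 0.08 and -0.87 ± 0.11 without IL-2. Slc25a27, like Slc25a35 and Slc25a47, lay under the level limit of the rule for named carriers and was singled out after its values were seen. It measured 16.8, 21.4, 23.3, 20.3 and 18.8 CPM at pH 7.4 without IL-2, 2.82, 2.97, 3.72, 3.52 and 3.38 CPM at pH 6.6 without IL-2 and 1.27 to 3.14 CPM in the 15 libraries with IL-2. Slc25a27 was thus high in the pH 7.4 and pH 7 groups without IL-2 and low in the rest, with log2 fold changes of -2.61 ± 0.16 (adjusted p = 3.45e-15) for pH 6.6 without IL-2 and -3.64 ± 0.17 (adjusted p = 3.99e-19) for IL-2 at pH 7.4. Its interaction of 3.28 ± 0.25 (adjusted p = 2.44e-13) was the largest of the family.

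Among carriers with no class, Slc25a45 and Slc25a53 were likewise highest without IL-2 at pH 7.4 and pH 7. Slc25a45 measured 111, 102, 106, 84.1 and 100.4 CPM at pH 7.4 and 50.3, 39.2, 41.2, 53.8 and 49.7 CPM at pH 6.6 without IL-2, a log2 fold change of -1.11 ± 0.10 (adjusted p = 2.99e-11). With IL-2 it measured 33.4, 26.3, 26.5, 26.3 and 24.4 CPM at pH 7.4 and 37.2, 33.97, 35.2, 38.2 and 32.7 CPM at pH 6.6. Those groups overlapped at 0.38 ± 0.10 (adjusted p = 0.00123), and the interaction was 1.49 ± 0.14 (adjusted p = 7.67e-11). Slc25a53 went from 72.4, 77.9, 75.6, 69.2 and 58.4 CPM to 45.4, 33.5, 36.8, 26.1 and 28.3 CPM without IL-2, a log2 fold change of -1.07 ± 0.10 (adjusted p = 2.07e-11). With IL-2 it went from 24.1, 20.6, 24.3, 19.4 and 18.2 CPM to 41.7, 30.3, 40.97, 26.8 and 29.01 CPM, a rise of 0.65 ± 0.10 (adjusted p = 3.61e-07), and the interaction was 1.73 ± 0.14 (adjusted p = 8.14e-13). Slc25a35 fell by 1.10 on the log2 scale without IL-2, but 31.3% of its exon bases lie opposite Rangrf. Slc25a47, at 0.201 to 1.37 CPM as a group mean, was lower at pH 6.6 + IL-2, at -2.79 ± 0.32, and Slc25a46, an outer membrane protein linked to mitochondrial shape, did not pass with or without IL-2.

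**Figure D3:**
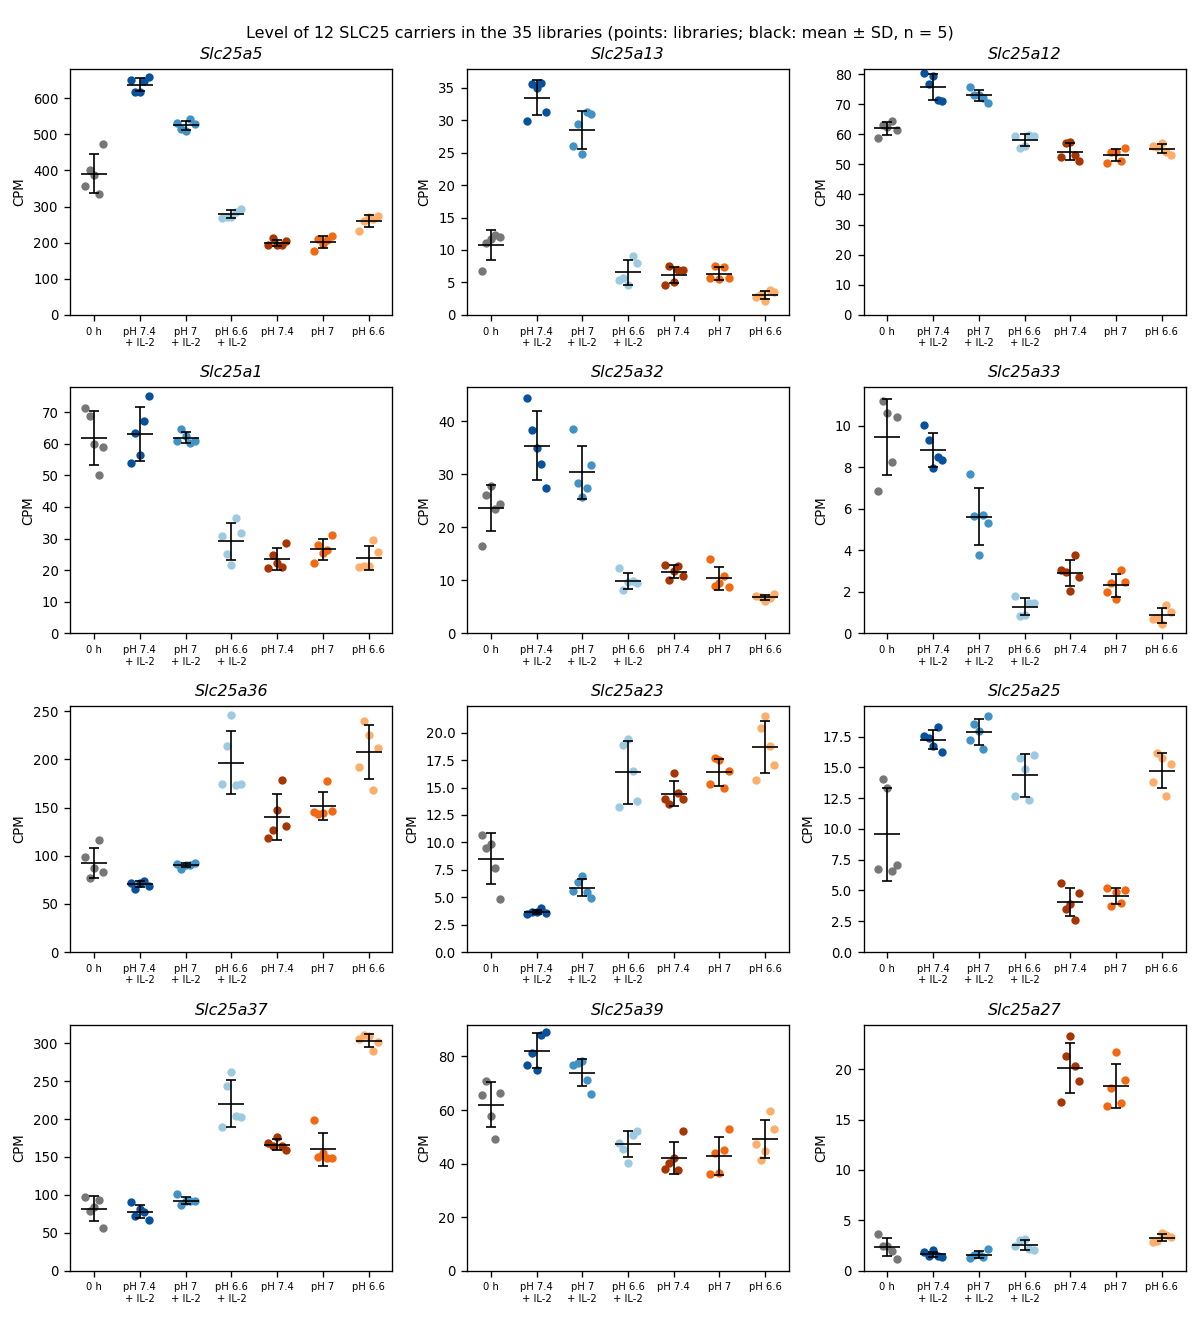
Level in CPM (vertical axes, from 0) of 12 carriers in each of the 35 libraries, by group (horizontal axes), with the mean and SD of 5 libraries in black. Slc25a5, Slc25a13, Slc25a1, Slc25a32 and Slc25a33 are high at pH 7.4 + IL-2 and low at pH 6.6 + IL-2, Slc25a36, Slc25a23 and Slc25a37 are the reverse, Slc25a25 is lowest without IL-2 at pH 7.4 and pH 7, and Slc25a27 is highest there, at 16.3 to 23.3 CPM.

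The next comparison asked whether acidity had the same effect when no IL-2 was given. Without IL-2, 13 carriers were higher and 18 lower in acid at pH 6.6 (pH 7.4 being the reference, 79.5% of 39, against 67% of all genes tested, 31.6% higher and 35.4% lower). Their median log2 fold change of -0.16 compares with -0.03 over all genes. The libraries did not overlap in 23 carriers (58.97%, against 47.4% of all genes), and 27 of the 31 carriers past the threshold changed the same way in 5 of 5 pairs. With IL-2 and without it, 9 carriers were higher at pH 6.6, among them Slc25a3, Slc25a23, Slc25a28, Slc25a30, Slc25a36, Slc25a37, Slc25a40 and Slc25a51, and 13 were lower, among them Slc25a10, Slc25a11, Slc25a13, Slc25a15, Slc25a22, Slc25a32 and Slc25a33. Slc25a5 and Slc25a39 were lower with IL-2 and higher without, and Slc25a27, Slc25a45 and Slc25a53 were higher with IL-2 and lower without. Slc25a1, Slc25a4, Slc25a12, Slc25a20 and Slc25a29 passed only with IL-2, and Slc25a2, Slc25a24, Slc25a25 and Slc25a35 only without, but the difference between the settings did not pass for Slc25a2, Slc25a24 and Slc25a29. Across the 39 carriers, which share libraries and normalization, the log2 fold changes with and without IL-2 had a Pearson's r of 0.491 and a Spearman's rho of 0.518, given as a description.

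The interaction asked directly whether the effect of pH 6.6 differed with IL-2. It passed for 17 carriers with a lower value with IL-2 and for 8 with a higher one, 64.1% of the 39 against 67% of all genes tested, 32.8% lower and 34.3% higher. The median interaction was -0.29 on the log2 scale over the carriers and 0.04 over all genes. The largest negative values among the named carriers were those of Slc25a25 (-2.12), Slc25a5 (-1.58) and Slc25a13 (-1.39), and the largest positive ones those of Slc25a23 (1.796), Slc25a53 (1.73) and Slc25a45 (1.49). Without replicate 3, the count of negative interactions was 11 in place of 17. The median interaction was then -0.21 over the carriers and 0.13 over all genes, so both medians were higher than with all replicates.

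The effect of IL-2 itself was compared at pH 7.4, where the share of carriers called was near that of all genes tested. At pH 7.4, 19 carriers were higher and 13 lower with IL-2 than without (82.1% of 39, against 80.4% of all genes, 39.3% higher and 41.1% lower), with a median log2 fold change of 0.24 against -0.04 over all genes. In 28 carriers the libraries did not overlap (71.8%, against 65.8% of all genes). Slc25a13 rose by 2.46 ± 0.12 (adjusted p = 2.11e-18), Slc25a25 by 2.08 ± 0.17 (adjusted p = 3.94e-13) and Slc25a5 by 1.68 ± 0.07 (adjusted p = 4.03e-21) on the log2 scale. The lower group was led, after Slc25a27, by Slc25a23 at -1.99 ± 0.13 (adjusted p = 9.59e-16), Slc25a45 at -1.89 ± 0.10 (adjusted p = 1.62e-17) and Slc25a53 at -1.74 ± 0.10 (adjusted p = 3.82e-17). The Slc25a3 difference of 0.17 ± 0.07 (adjusted p = 0.0157) lost the threshold without replicate 2 or 3 (adjusted p = 0.0557 and 0.223) and under the looser and the stricter filter on low counts (adjusted p = 0.0525 and 0.0672).

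At pH 6.6, fewer carriers passed for IL-2 against none, 5 higher and 6 lower (28.2% of 39, against 23.7% of all genes, 13.2% higher and 10.6% lower), and 10 of these 11 changed the same way in 5 of 5 pairs. Slc25a13 was the only one past a log2 fold change of 1, at 1.07 ± 0.14 (adjusted p = 4.66e-07), and Slc25a32 (0.53 ± 0.14), Slc25a22 (0.51 ± 0.13), Slc25a10 (0.46 ± 0.16) and Slc25a15 (0.45 ± 0.11) were higher as well. Slc25a37 (-0.46 ± 0.09), Slc25a45 (-0.40 ± 0.10), Slc25a40 (-0.35 ± 0.10), Slc25a38 (-0.34 ± 0.10), Slc25a28 (-0.25 ± 0.09) and Slc25a51 (-0.25 ± 0.07) were lower. Slc25a5 measured 278 ± 11.01 CPM with IL-2 and 260.1 ± 16.8 CPM without at pH 6.6, a log2 fold change of 0.10 ± 0.07 that did not pass (adjusted p = 0.288). Without replicate 5, 2 carriers in place of 6 were lower with IL-2 at pH 6.6, and in a fit of only these groups 9 in place of 5 were higher.

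The milder acidity of pH 7 was also set against pH 7.4, and with IL-2 the share of carriers called was near that of all genes tested. With IL-2, 3 carriers were higher and 5 lower at pH 7 than at pH 7.4 (20.5% of 39, against 19% of all genes, 9.15% higher and 9.83% lower), and the lower count was 3 without the replicate block. Slc25a33 measured 7.67, 5.68, 3.79, 5.69 and 5.33 CPM at pH 7 + IL-2, between its levels at pH 7.4 and pH 6.6, a log2 fold change of -0.67 ± 0.17 (adjusted p = 0.00584) from pH 7.4. Slc25a23 measured 5.52, 6.36, 6.92, 5.51 and 4.95 CPM and Slc25a36 91.1, 86.4, 90.1, 90.8 and 92.1 CPM at pH 7 + IL-2, rises of 0.68 ± 0.13 (adjusted p = 4.50e-04) and 0.36 ± 0.11 (adjusted p = 0.0182). Slc25a5, Slc25a4 and Slc25a3 were lower, with log2 fold changes of -0.28 ± 0.06, -0.27 ± 0.08 and -0.20 ± 0.07, so Slc25a3, set against pH 7.4, was lower at pH 7 and higher at pH 6.6. Whether Slc25a3 was among the lower calls lost under other settings is not given here. Slc25a35 was higher (0.51 ± 0.15) and the weakly expressed Slc25a47 lower (-0.80 ± 0.25). Leaving out replicate 2 gave 1 higher and 3 lower carriers, without replicate 3 there was 1 higher, and without replicate 4 there were 3 lower. A fit of only these groups gave 8 higher. Slc25a13, with 28.5 ± 2.94 CPM at pH 7 + IL-2, had a log2 fold change of -0.24 ± 0.11 that did not pass (adjusted p = 0.1399). Without IL-2, 0 carriers passed between pH 7 and pH 7.4 in the edgeR model of 7 groups or in DESeq2, 1 was lower in a fit of only these groups, 2 had an unadjusted p under 0.05, and 1.68% of all genes tested passed, 1.36% higher and 0.318% lower.

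Both pH 7.4 groups and the pH 6.6 + IL-2 group were also set against the cells at 0 h, which had been growing in IL-2, and these comparisons share the 0 h libraries. At pH 7.4 + IL-2, 12 carriers were higher and 7 lower than at 0 h (59.9% of all genes passed, 29% higher and 30.9% lower, against 48.7% of the carriers). At pH 7.4 without IL-2, 11 were higher and 17 lower (75.2% of all genes, 36.9% higher and 38.3% lower, against 71.8%), and at pH 6.6 + IL-2, 13 were higher and 19 lower (68.5% of all genes, 30.5% higher and 38% lower, against 82.1%). In these comparisons 16 of 19, 27 of 28 and 28 of 32 carriers past the threshold changed the same way in 5 of 5 pairs. Slc25a13 at 0 h measured 6.69, 11.1, 11.7, 12.2 and 11.9 CPM, and its log2 difference from 0 h was 1.66 ± 0.12 at pH 7.4 + IL-2, -0.80 ± 0.12 at pH 7.4 and -0.72 ± 0.13 at pH 6.6 + IL-2. Slc25a5, at 357, 401, 387, 334 and 474 CPM at 0 h, had differences of 0.71 ± 0.07, -0.96 ± 0.07 and -0.48 ± 0.07 in the same order. Slc25a33, at 6.84, 11.2, 10.6, 8.26 and 10.4 CPM at 0 h, had -0.12 ± 0.17, -1.73 ± 0.18 and -2.92 ± 0.20, so its level at pH 7.4 + IL-2 did not pass against 0 h (adjusted p = 0.567) and its level at pH 6.6 + IL-2 was 7.59-fold lower. Slc25a37 showed -0.07 ± 0.09, 1.03 ± 0.09 and 1.44 ± 0.10, and Slc25a40 0.39 ± 0.10, 0.85 ± 0.10 and 1.36 ± 0.11. Slc25a1, with 61.8 ± 8.42 CPM at 0 h and 63.2 ± 8.57 CPM at pH 7.4 + IL-2, was lower in the 2 other comparisons, at -1.41 ± 0.11 and -1.10 ± 0.11.

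**Figure D4:**
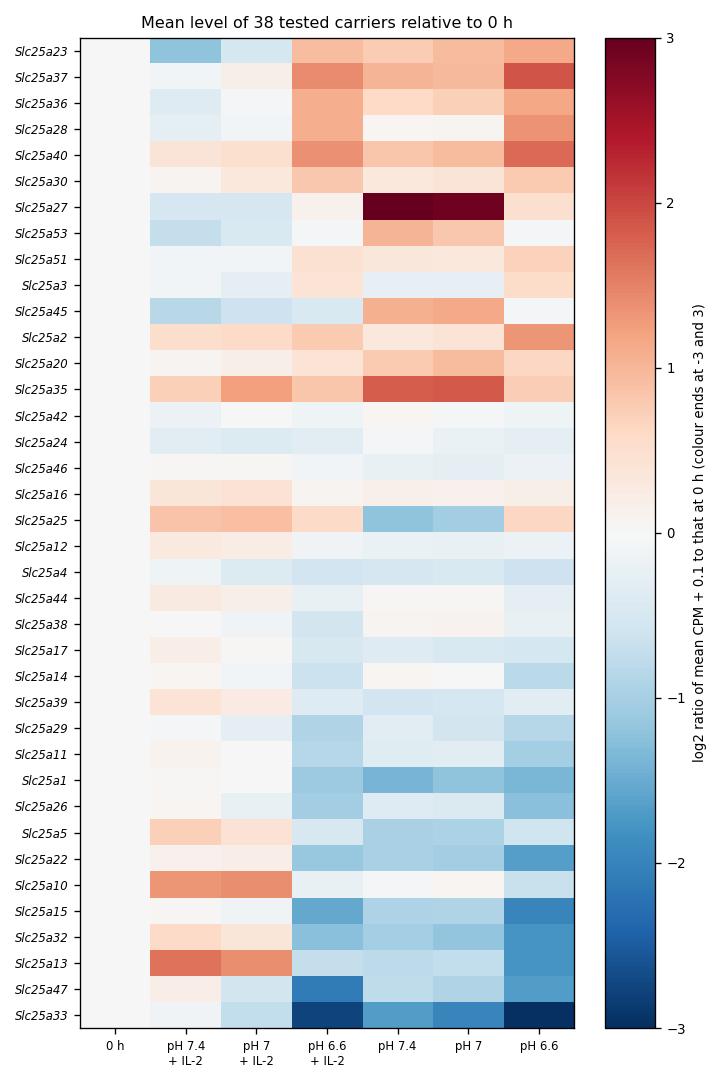
Log2 ratio of the mean level (CPM + 0.1) of tested carriers (rows, 38 carriers in the order of their pH 6.6 effect with IL-2) to its mean at 0 h, by group (columns, 5 libraries each), in red where higher and in blue where lower than at 0 h, with the colour ending at -3 and 3. The upper rows, from Slc25a23 to Slc25a40, are redder at pH 6.6 + IL-2 than at pH 7.4 + IL-2, and the lower rows, from Slc25a15 to Slc25a33, are bluer. Slc25a27 stands out in red at pH 7.4 and pH 7 without IL-2.

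The ratios between carriers with like substrates are given here per length. The ratio of Slc25a13 to Slc25a12 RPKM was 0.858 ± 0.0913 (SD, n = 5) at pH 7.4 + IL-2 and 0.217 ± 0.0573 at pH 6.6 + IL-2, and 0.221 ± 0.0461 and 0.109 ± 0.0251 at pH 7.4 and pH 6.6 without IL-2. The ratio of Slc25a36 to Slc25a33 was 1.39 to 1.78 in the pH 7.4 + IL-2 libraries, 2.34 to 4.67 at pH 7 + IL-2 and 19.2 to 55.02 at pH 6.6 + IL-2, which do not overlap. Without IL-2 this ratio was 7.65 to 14.2 at pH 7.4 and 23.7 to 97.5 at pH 6.6, and it was 1.35 to 2.84 at 0 h. The ratio of Slc25a5 to Slc25a4 was 4.15 ± 0.274 at pH 7.4 + IL-2 and 2.46 ± 0.0727 at pH 6.6 + IL-2, but 1.66 ± 0.0876 and 2.35 ± 0.203 at the same pH values without IL-2, so the direction was the opposite. Slc25a40 to Slc25a39 went from 0.203 ± 0.0324 to 0.706 ± 0.196 with IL-2, and Slc25a23 to Slc25a24 from 0.02396 ± 0.00171 to 0.107 ± 0.0192. The mitoferrin ratio, Slc25a37 to Slc25a28, was 1.82 ± 0.151 and 1.998 ± 0.225 with IL-2, groups that overlapped. These ratios carry the same libraries as the tests above and were given no test of their own.

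**Figure D5:**
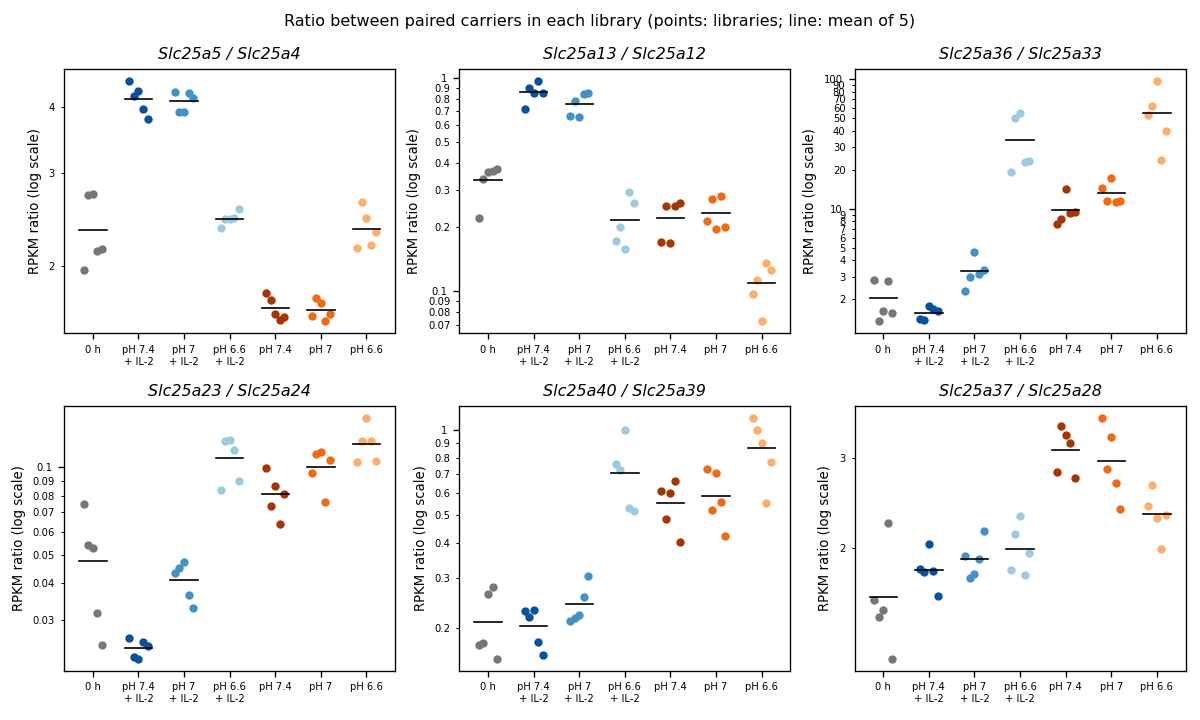
Ratio of RPKM values (vertical axes, log scale) between 6 pairs of carriers in each of the 35 libraries, by group (horizontal axes), with the mean of 5 libraries as a line. The Slc25a36 to Slc25a33 ratio separates pH 7.4 + IL-2 (1.39 to 1.78) from pH 7 + IL-2 and pH 6.6 + IL-2, and from pH 7.4 to pH 6.6 the Slc25a5 to Slc25a4 ratio falls with IL-2 and rises without.

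Genes that work with the carriers were counted from lists. The list of mitochondrial import genes held TOM and small TIM proteins and the TIM22 complex, by which carriers reach the inner membrane, and also Timm17a and Timm23 of the complex for proteins with presequences. It had 13 of 16 tested genes lower and 0 higher at pH 6.6 + IL-2, with a median log2 fold change of -0.99. Timm10, a chaperone that escorts carriers between the membranes, changed by -2.10 ± 0.16, and Tomm40, the pore of the outer membrane, by -2.32 ± 0.13. Without IL-2, 6 of these genes were higher and 4 lower, where 31.6% and 35.4% of all genes tested were. All 8 shuttle and citrate enzymes tested (Got1, Got2, Mdh1, Mdh2, Acly, Cs, Me1 and Me2), which use the substrates of Slc25a1, Slc25a11, Slc25a12 and Slc25a13, were lower at pH 6.6 + IL-2, with a median of -1.13. Me1 was weakly expressed, with group means of 0.770 CPM at pH 7.4 + IL-2 and 0.109 CPM at pH 6.6 + IL-2. Without IL-2, 6 of the 8 were higher and 0 lower, against 31.6% and 35.4% of all genes tested. Of 5 mitochondrial folate enzymes, which use what Slc25a32 carries, 4 were lower with IL-2, and Mthfd2l, at 0.10 ± 0.15, did not pass. Other mitochondrial channels and transporters had 15 of 18 lower and 2 higher (Sfxn3 at 1.22 ± 0.07 and Sfxn4 at 1.61 ± 0.15). Ucp2, Mtch1 and Mtch2, which belong to the SLC25 family under other symbols, were lower at -0.84 ± 0.13, -0.98 ± 0.08 and -1.05 ± 0.08. The interaction was negative and past the threshold for 8 of the 8 shuttle enzymes and 14 of the 16 import genes, against 32.8% of all genes tested. The share of all genes tested that was lower, 40.9%, is the background of each of these counts at pH 6.6 + IL-2.

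Markers of other cells also moved with the groups. Over 5 myeloid markers the summed level was 2.30 to 5.43 CPM at pH 7.4 + IL-2 and 7.55 to 11.9 CPM at pH 6.6 + IL-2. Without IL-2 the sum was 15.1 to 24.5 CPM at pH 7.4 and 6.83 to 12.2 CPM at pH 6.6. Itgax was the highest of them at 1.67 to 24.9 CPM. Itgam reached 3.29 CPM and was at 0 in 1 of 35 libraries, and Cd14 measured 0.0421 to 0.827 CPM. Csf1r and Lyz2 were at 0 in 29 and 28 of 35 libraries. The NK cell markers were at 43.0 to 45.8 CPM at pH 7.4 + IL-2 and 19.3 to 33.2 CPM at pH 6.6 + IL-2. Of these, Klrb1c was at 8.27 to 94.9 CPM over the 35 libraries, and Ncr1 was at 0 in 25 libraries. The stromal pair, nearly all Pecam1, was at 25.2 to 35.2 CPM at pH 7.4 + IL-2 and 29.5 to 39.5 CPM at pH 6.6 + IL-2. Without IL-2 the NK cell markers were at 20.6 to 40.8 CPM at pH 7.4 and 8.27 to 12.1 CPM at pH 6.6, and the stromal pair at 83.8 to 118 CPM and 38.9 to 49.4 CPM, and in both lists these groups did not overlap. The sum of 4 B cell markers was at most 6.10 CPM and that of 3 erythroid markers at most 0.274 CPM in any library, and Cd4 reached 2.48 CPM. Their part in the carrier levels was not tested.

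Among the 8 carriers that were not tested, Slc25a18 (glutamate), Slc25a21 (oxodicarboxylates) and Slc25a54 had 0 counts in 35 of 35 libraries, which allows up to 0.0881 to 0.179 CPM per library at 3 counts. Slc25a31, the adenine nucleotide translocase of the testis, Slc25a34, Slc25a41 and Slc25a48 had at most 3 counts in a library, and Slc25a43 at most 4. Some of these lie beside carriers that were tested: Slc25a43 is 18448 bases from Slc25a5 on chromosome X, Slc25a41 is 2056 bases from Slc25a23 on chromosome 17, and Slc25a54 is 6461 bases from Slc25a24 on chromosome 3. Slc25a29 and Slc25a47 start 162 bases apart on opposite strands of chromosome 12, and both were lower at pH 6.6 + IL-2.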

How the data were processed

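RNA-seq was done on 35 libraries of OT-I CTLs (7 groups, 5 biological replicates). The authors deposited raw counts, 1 table per library with the reads on each of 48709 genes and no normalization. Submitters' processing notes list cutadapt 1.8, STAR 2.5.2b, HTSeq 0.6.1 and GRCm38. The libraries were stranded, but the strand setting of the counting and the annotation release are not given in the sources used here. Closing rows that belong to no gene did not enter library sizes. Among them, alignments at several places came to 32.8% to 48.3% of each table.

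Symbols were matched for 48349 gene identifiers, and GENCODE M21 gave the exon lengths. In R 4.3.3, edgeR 4.0.16 kept 13819 genes (filterByExpr, minimum count 10), scaled them by TMM and fitted 1 robust quasi-likelihood model of the 7 groups, blocked on replicate number. The common biological coefficient of variation was 0.120. Adjusted p-values are Benjamini-Hochberg values over all genes tested, with 0.05 as the threshold, and ± after a log2 fold change is the SE. A SE is the log2 fold change divided by the square root of the test statistic. The block follows the paired and repeated-measures tests of the study. The labels do not say that a number marks 1 culture. The deviation of a library from the mean of its group correlated at over 0.1 with that of the library of the same number in 89 of 105 pairs, and in 5 of 5 pairs of pH 7.4 + IL-2 and pH 6.6 + IL-2. Where numbers share no culture, p-values measure the spread between these samples, which may be partly technical. Of 70 pairs of libraries within groups, none was a duplicate (lowest chi-square per degree of freedom 6.65).

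Members, roles and gene lists were chosen with earlier results of these data known. Values by library in the compared groups are given for 19 carriers fixed by role, for the 5 largest rises and falls at pH 6.6 + IL-2, and for the 3 largest in each direction in the interaction, without IL-2 and for IL-2 at pH 7.4, among those called whose mean log2 CPM reached 3 and whose sign held in 5 of 5 pairs. This gave 24 carriers. For 1 further carrier, which is counted in the totals, no values are reported here. Other settings tried were DESeq2 1.42.0, RLE normalization, keeping genes with 1 count anywhere or only those with 10 everywhere, fitting the compared groups alone, omitting the block or each replicate, and requiring a log2 fold change of 1 in size. Limits set by 0 counts cover counting error only.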

Additional observations from a re-analysis of the deposited data

Results flagged for a closer look

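Of 168 groups of 5 libraries checked (24 carriers in 7 groups), 10 held a library far from the other 4, where chance alone marks about 1 group in 20. At pH 7 without IL-2, replicate 1 was high for Slc25a37 (198 CPM) and Slc25a51 (95.2 CPM) and low for Slc25a11 (70.3 CPM), and replicate 4 was at 178 CPM for Slc25a36. At 0 h, Slc25a13 was at 6.69 CPM in replicate 1 and Slc25a3 at 718 CPM in replicate 5. Slc25a23 was at 3.97 CPM in pH 7.4 + IL-2 replicate 4, Slc25a45 at 33.4 CPM in pH 7.4 + IL-2 replicate 1, Slc25a53 at 32.2 CPM in pH 7 + IL-2 replicate 1 and Slc25a11 at 66.8 CPM in pH 7.4 replicate 1 without IL-2. Replicate 1 accounts for 7 of the 10.

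For 20 of the 24 named carriers, the pH 6.6 effect was not the same in the presence of IL-2 (interaction past an edgeR adjusted p of 0.05). The log2 value with IL-2 was lower than that without IL-2 for Slc25a25 (-2.12), Slc25a5 (-1.58), Slc25a13 (-1.39), Slc25a1 (-1.13), Slc25a32 (-1.08), Slc25a33 (-1.06), Slc25a39 (-1.03), Slc25a10 (-0.93), Slc25a22 (-0.60), Slc25a15 (-0.50), Slc25a12 (-0.41), Slc25a4 (-0.32), Slc25a11 (-0.31) and Slc25a3 (-0.30). It was higher for Slc25a23 (1.796), Slc25a53 (1.73), Slc25a45 (1.49), Slc25a36 (0.90), Slc25a37 (0.64) and Slc25a20 (0.49). Some of these carriers were named for the size of such values, so nothing is read from their count. Over the 39 carriers tested, 64.1% passed the same test, against 67% of all genes tested.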

How the results depend on the processing

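For the 24 named carriers in the comparisons of pH 6.6, IL-2 at pH 7.4 and the interaction, 1026 values under the alternatives kept their direction and their side of the threshold, 25 lost the call, 5 gained it and 0 reversed. Medians over the carriers that lay near 0 changed sign under some alternatives. When a log2 fold change of 1 or more in size was required, the higher and lower counts were 4 and 10 for pH 6.6 with IL-2, 3 and 7 for pH 6.6 without IL-2, 0 and 0 for pH 7 with IL-2, 9 and 6 for IL-2 at pH 7.4, 1 and 0 for IL-2 at pH 6.6, and 5 and 8 for the interaction. Against 0 h they were 2 and 1 at pH 7.4 + IL-2, 5 and 4 at pH 7.4 without IL-2, and 5 and 7 at pH 6.6 + IL-2. For this cut and the other settings of this section, the share of all genes that passed is not given here. Nothing about the family is therefore read from these counts. In a fit of only the groups compared, 8 carriers were higher at pH 7 with IL-2, 1 was lower at pH 7 without IL-2, 9 were higher for IL-2 at pH 6.6, and the median log2 values were 0.025 for IL-2 at pH 6.6 and -0.19 for the interaction. Over all genes tested, the 2 medians in that fit were 0.00 and 0.14, against -0.04 and 0.04 in the model of 7 groups. The stricter filter, under which 37 carriers were tested, gave 5 higher carriers at pH 7 with IL-2. Its median interaction was -0.22, with 0.0087 over all genes. The cause was not tested.

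Without the replicate block, 3 carriers in place of 5 were lower at pH 7 with IL-2, the calls of Slc25a39 at pH 6.6 without IL-2 (0.23) and of the Slc25a11 interaction (-0.31) were lost, and the counts at pH 6.6 with IL-2 were 13 higher and 19 lower, as with the block. Omission of 1 replicate at a time gave 1 to 3 higher and 3 to 4 lower carriers at pH 7 with IL-2 with a median of -0.070 to -0.012, a median of -0.026 to 0.022 at pH 7 without IL-2, 2 to 6 lower for IL-2 at pH 6.6, 11 to 17 negative interactions with a median of -0.30 to -0.21, and a median of -0.26 to -0.075 for pH 6.6 + IL-2 against 0 h. Under the same omissions the median interaction over all genes was 0.038 to 0.13. For pH 6.6 with IL-2 the omissions gave 12 to 13 higher and 19 to 20 lower. Low counts limit Slc25a2 (2 to 19 per library), Slc25a29 and Slc25a47.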
